A study of Caenorhabditis elegans with 4 samples.

Results

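This account concerns the stretches of the Caenorhabditis elegans genome where regions bound by LIN-39 lay close together. In the authors' deposited list of 7493 regions, regions on the same chromosome were chained whenever neighbouring midpoints lay at most 2000 bp apart, and chains of 4 or more were taken as groups. This gave 628 grouped regions in 133 groups, 8.38% of the list. They were set beside the 4471 isolated regions, which had no neighbour within that distance. The remaining 2394 regions stood in groups of 2 or 3. The list came from 2 ChIP and 2 input libraries. Chromatin was taken from hermaphrodites of strain OP18 at the third larval stage (L3), grown at 20 °C and crosslinked with 2% formaldehyde. The strain is mutant for unc-119 on chromosome III (allele ed3). Its transgene wgIs18, introduced by bombardment, holds a wild-type unc-119 copy and lin-39 fused to TY1, EGFP and 3xFLAG tags, and all libraries share it. ChIP libraries were made with a goat antibody against EGFP, and input libraries from DNA that was not precipitated. The labels do not give the number of transgene copies, and no library of worms without the tag was used here.

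LIN-39 is a Hox homeodomain transcription factor of the worm's central body region. It is known for keeping vulval precursor cells from fusing and for giving them their fate, for the fates of ventral cord neurons and for the migration of neuroblasts. Hox proteins recognise short AT-rich sites that occur often by chance, and regulatory DNA of developmental genes can hold several bound stretches in a row. Neighbouring regions may therefore belong to 1 gene or to several. The coordinates below are on the WormBase build WS180. The gene table at hand is for another assembly, so regions are given by position, without gene names or sequence.

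Each region has a single q-value for ChIP over input with the replicates combined, which is the authors' own value. The list gives nothing per library, so there is no spread between replicates below. Numbers of ChIP reads and of scaled input reads were worked out from q, assuming a binomial test. The number of tests inferred in the same way was 25497, of which the list holds 29.4%. Enrichment is the number of ChIP reads divided by the number of scaled input reads in the region. Reads were available for 627 of the 628 grouped and 4467 of the 4471 isolated regions. Grouped regions held 68324 ChIP reads against 25285 scaled input reads. Because the groups were chosen from the positions of listed regions, and width, q and reads come from the same list, the values below describe the groups and are not tests.

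Most groups were small. There were 83 groups of 4 regions, 25 of 5 and 15 of 6. Of the 10 larger groups, 5 held 7 regions, 3 held 8, and the remaining pair held 10 and 12. Chromosome I carried 7 of these 10 groups, IV carried 2 and III carried 1. On II the groups had at most 5 regions, and on V and X at most 6. A group spanned a median of 4751 bp, from 2081 to 12408 bp. Listed regions covered a median of 41.8% of that span, with an interquartile range of 34.7 to 54.2%. All groups together spanned 673 kb and their regions covered 291 kb. They took up 8.14% of the width of all listed regions and 7.84% of the ChIP reads in them, close to their 8.38% share of the number of regions.

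Grouped regions were most frequent on chromosome I. It held 260 of them in 51 groups, which was 41.4% of all grouped regions (exact Clopper-Pearson 95% interval 37.5 to 45.4), against 19.6% of isolated regions (18.5 to 20.8). Intervals of shares here reflect counting alone, as if regions were independent, and neighbours in a group are not. Of the listed regions of chromosome I, 14.6% were grouped. The share was 7.02% on III, 6.76% on V, 6.53% on II, 6.1% on X and 5.97% on IV. The X chromosome was the second densest, with 85.4 listed regions per Mb after 119 on I, yet it held 14.6% of grouped regions (12.0 to 17.7) against 21.3% of isolated ones (20.1 to 22.5). Chromosome V, with 48.8 regions per Mb the sparsest, had a slightly larger grouped share than X.

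**Figure D1:**
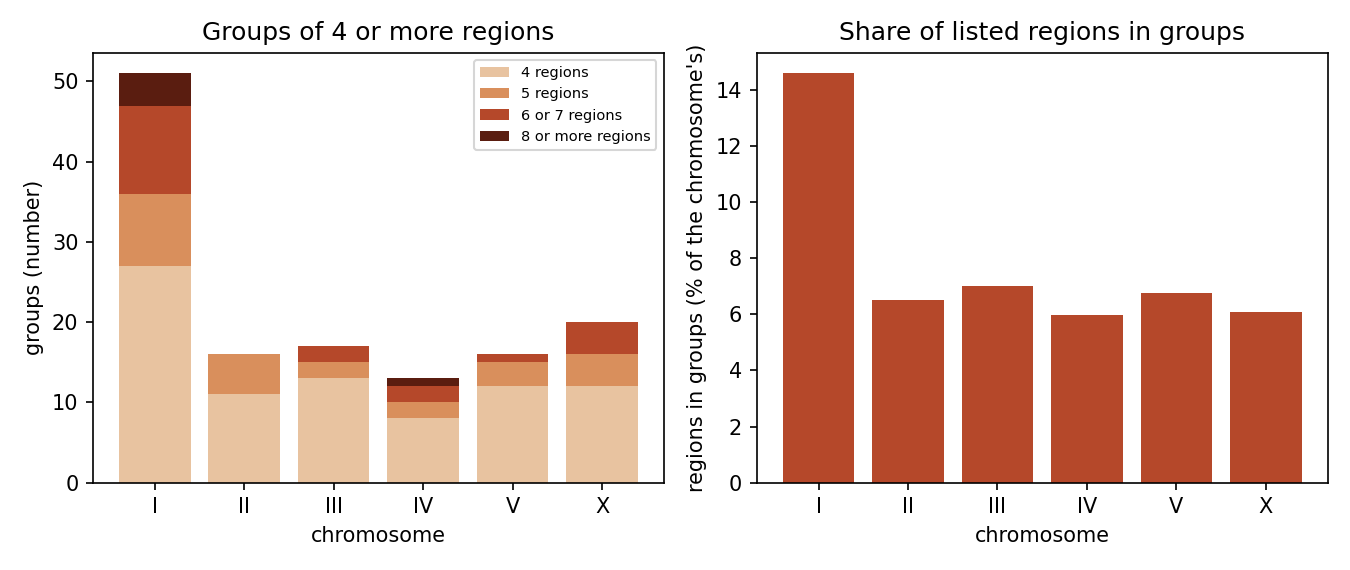
Left, the number of groups of 4 or more regions on each chromosome, stacked by group size. Right, grouped regions as a percentage of all listed regions of the chromosome, where I stands at 14.6% and the others lie between 5.97 and 7.02%.

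The place of chromosome I changed when the limit was scaled by spacing and when its input was rescaled. When the 2000 bp limit was scaled by the mean spacing of regions on each chromosome, it became 1262 bp on I and 3065 bp on V. Then 3.59% of the regions of I were grouped, against 4.57% on X, 7.02% on III, 7.57% on II, 9.38% on IV and 15.8% on V. The share of grouped regions lying on I was then 11.7%, against 26.6% of isolated regions, so the direction turned. The authors' input was scaled by a factor inferred as 1.39 on I and as 1.81 to 1.98 on the other chromosomes. With the mean factor of the others, 1.897, used on I, 63.2% of its 1784 regions stayed below the q limit. Among its grouped regions 181 of 260 did (69.6%), and among its isolated regions 548 of 878 (62.4%). Chaining that shorter list left 432 grouped regions in 95 groups, of which 82 in 17 groups lay on I. Of the 51 groups first found on I, 22 kept 4 or more regions, but these did not always still form a group. Chromosome I then held 19.0% of grouped and 16.5% of isolated regions, and 7.28% of its own regions were grouped, against 6.24% on the other chromosomes together. Which factor is right was not tested, nor was the reason for the larger grouped share of I.

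Worm chromosomes have gene-dense centres and arms with more repeats and more recombination on the autosomes. With the outer 30% of each end counted as arms, 320 of the 628 grouped regions lay in arms, or 51.0% (interval 47.0 to 54.9), against 55.5% of isolated regions (54.0 to 57.0). That difference of -4.54 percentage points was -1.25 without the groups of 8 or more regions on chromosome I, and turned to 0.928 with groups of at least 5 regions. The autosomes and X went opposite ways. On the autosomes 45.1% of grouped regions were in arms (40.9 to 49.5), against 53.9% of isolated ones (52.2 to 55.5). On X the share was 84.8% of grouped regions (75.8 to 91.4), against 61.5% of isolated ones (58.3 to 64.6). Counted by groups, 51 of 113 autosomal groups (45.1%, 35.8 to 54.8) and 17 of 20 groups on X (85.0%, 62.1 to 96.8) were centred in arms. The lowest share was that of V, 31.9% of grouped against 46.8% of isolated regions. It was followed by II with 33.3% against 55.2%, III with 44.0% against 54.9%, IV with 46.0% against 55.9%, and I with 51.9% against 55.8%. On II no group lay in the left arm, and its first group was centred at 39.0% of the chromosome.

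**Figure D2:**
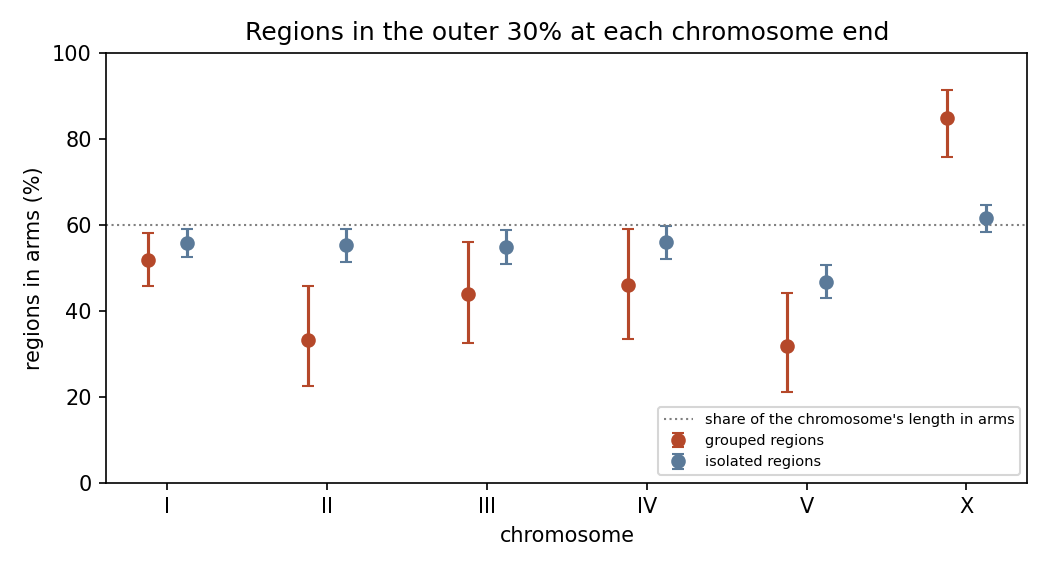
Percentage of grouped regions (left point of each pair) and isolated regions (right point) lying in chromosome arms, with exact 95% binomial intervals. The dotted line marks the 60% of the span that arms make up by definition. Grouped regions lie below isolated ones on the 5 autosomes and above them on X.

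The grouped regions of X were concentrated in its left arm. Of 92, 50 lay in the left arm, 14 in the centre and 28 in the right arm, whereas the 953 isolated regions of X were spread as 279, 367 and 307. The window from 4000001 to 5000000 held 6 groups with 29 regions, out of 127 listed there. This window ends at 28.3% of the chromosome, close to the arm boundary. With arms of 25% the excess in arms over isolated regions was 6.33 percentage points, in place of 23.3 with arms of 30%. It was 2.18 points with midpoints within 1500 bp, and with midpoints within 1000 bp, which left 8 grouped regions on X, it turned to -13.3 points. On the autosomes the difference was negative, at -8.72 points. It stayed negative under each alternative tried there. It was -5.27 points without the groups of 8 or more regions on chromosome I, and -2.68 with groups of at least 5 regions.

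Grouped regions differed little from isolated ones in width and depth. Their median width was 381 bp (interquartile range 267 to 591), against 354 bp (244 to 546) in isolated regions. The median number of ChIP reads was 81 (50 to 136) in grouped and 82 (47 to 136) in isolated regions, and that of scaled input reads was 30 (17 to 52) in grouped and 32 (16 to 60) in isolated regions. Median enrichment was 2.80-fold (2.29 to 3.54) in grouped regions and 2.56-fold (2.05 to 3.38) in isolated ones. The interquartile ranges of grouped and isolated regions overlap over most of their length. The median -log10 q was 4.72 in grouped and 3.96 in isolated regions. On the autosomes it was 4.85 against 3.91, but on X the order turned, with 3.91 in grouped and 4.16 in isolated regions. With the limit scaled by chromosome spacing the ratio of the medians of enrichment was 0.999, against 1.09 with the fixed limit. Dividing each enrichment by its chromosome's median gave 1.04. Within chromosomes the median enrichment of grouped regions was 3.10-fold against 3.00 on I, 2.68 against 2.51 on II, 2.41 against 2.44 on III, 2.68 against 2.53 on IV, 2.59 against 2.44 on V and 2.57 against 2.40 on X. It was thus above that of isolated regions on 5 of 6 chromosomes, by small amounts.

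Grouped regions were less frequent at both ends of the range of enrichment. Enrichment reached 2-fold in 88.0% of grouped regions and 78.7% of isolated ones, where the whole list has 80.1%. It reached 3-fold in 42.4% against 34.8%, with 36.2% in the whole list. At 5-fold the order turned, with 5.42% of grouped regions against 7.72% of isolated ones and 7.46% in the whole list. Without chromosome I, the lower quartile of enrichment was 2.18-fold in grouped and 2.0-fold in isolated regions, and the upper quartile was 3.22-fold in both. Regions under 50 bp, whose ratios rest on few reads, made up 2.55% of grouped and 4.54% of isolated regions. At the wide end, 50 grouped regions (7.96%) and 331 isolated ones (7.4%) were at least 1000 bp wide. The widest grouped region had 2200 bp, whereas 86 isolated regions were wider than that, including all 18 of the list with at least 4000 bp. A limit on the distance between midpoints itself works against wide regions. Measured from the midpoint of a region of at least 4000 bp, the limit does not reach the midpoint of any other listed region. Those 18 were therefore isolated by the rule itself, and their count is not an observation about isolated regions. Over the list by q, 1 grouped region stood among the first 25 (0.159% of grouped, against 0.38% of isolated regions). The order was the other way among the first 200, with 20 grouped regions (3.18% against 2.75%), and among the first 1000, with 108 (17.2% against 12.5%).

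**Figure D3:**
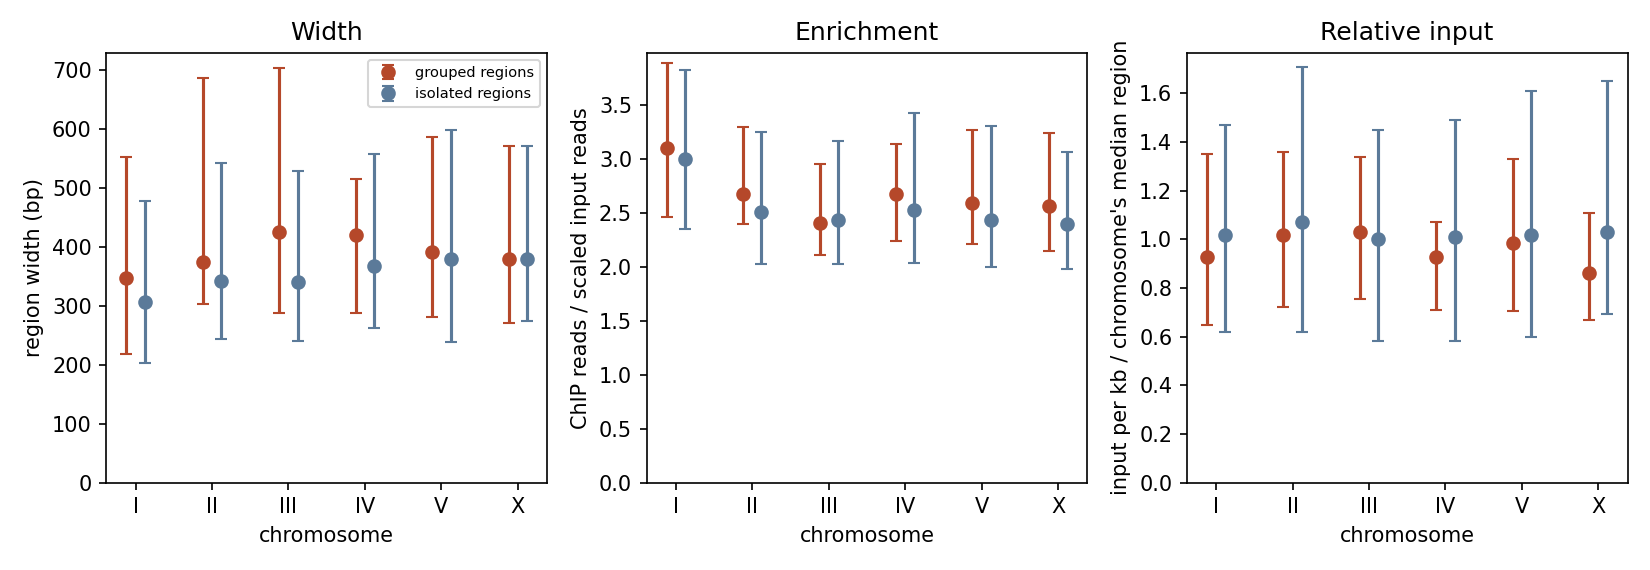
Median and interquartile range of region width in bp, of enrichment as ChIP over scaled input reads, and of input per kb divided by the chromosome's median region, for grouped (left of each pair) and isolated regions on each chromosome. The interquartile ranges of grouped and isolated regions overlap on every chromosome for all 3 measures.

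Input in the region gives a view of how much DNA was recovered there without precipitation. Relative input is input per kb before scaling, divided by the median of listed regions on the same chromosome. Its median was 0.957 in grouped regions (interquartile range 0.678 to 1.29) and 1.02 in isolated ones (0.619 to 1.54). The upper tail was shorter in grouped regions, with a 90th percentile of 1.72 against 2.13. On X the medians were 0.860 in grouped and 1.03 in isolated regions, and on III 1.03 in grouped and 1.00 in isolated ones. In 14 of the 133 groups every region with reads reached at least 1, and in 20 groups every such region lay below 1. Whether input had a part in which regions were grouped was not tested.

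Inside the groups, the 495 distances between neighbouring midpoints had a median of 1196 bp and ranged from 372 to 1996 bp. The stretches between the edge of a region and the start of the next had a median of 708 bp (interquartile range 423 to 1046). The shortest was 201 bp, where the shortest in the whole list was 200 bp, and 53 (10.7%) were under 300 bp. Another 195 (39.4%) were 500 to 999 bp long and 145 (29.3%) were 1000 bp or longer. In 389 of the 495 places (78.6%) neighbours were farther apart than the width of a median grouped region. Regions at the ends of a group had a median enrichment of 2.73-fold and a median width of 374 bp (n = 266), against 2.82-fold and 382 bp for those inside (n = 362). The region with most ChIP reads was an end region in 67 of the 133 groups. Of these groups 83 had 4 regions, where end regions are as many as inner ones, and in larger groups inner regions are more numerous. Whether place in the group had a part in this count was not tested.

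The fullest group lay on chromosome I from 7361813 to 7372280, near the middle of the chromosome. Its 12 regions were 129 to 608 bp wide and covered 40.6% of the span. Together they held 895 ChIP reads and 233 scaled input reads, which is 3.84 to 1. Enrichment ran from 2.62-fold to 6.82-fold, with a median of 3.98. The most enriched region, from 7370176 to 7370501, had 75 ChIP reads against 11 scaled input reads. The smallest q, 8.66e-20, belonged to the region from 7365353 to 7365960, with 136 ChIP reads against 22 and 6.18-fold enrichment. The least enriched, from 7364536 to 7364734, had 42 against 16. From left to right the enrichments were 4.43, 4.5, 2.9, 2.62, 6.18, 4.05, 2.81, 4.14, 3.29, 6.82, 2.64 and 3.92. High and low values alternated along the group, with no single summit. Relative input was between 0.407 and 1.19. With the input of I rescaled, 10 of the 12 regions stayed below the q limit and still formed a single group over the same span.

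The next group on I, from 6275635 to 6288042, was the longest of all, with 10 regions over 12408 bp. It held 889 ChIP reads against 272 scaled input reads. Its left end region, from 6275635 to 6275961, had 110 ChIP reads against 13 scaled input reads. That is 8.46-fold, the highest enrichment among grouped regions with more than 100 ChIP reads. The widest of the group, 1120 bp from 6283027 to 6284146, had most reads (283 against 74) at 3.82-fold and q = 4.58e-28. The region beside it, from 6284389 to 6285086, was the least enriched at 2.11-fold, with 95 ChIP reads against 45. The ratio of highest to lowest enrichment, 4.01, was therefore large for a group. After rescaling, 8 of the 10 regions stayed, but not as a single group. The 3 largest groups on I then held 10, 6 and 6 regions and lay elsewhere.

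Another pair of groups on I had 8 regions each. From 9422237 to 9430992 the regions held 1032 ChIP reads against 381 scaled input reads, with enrichment from 1.75-fold to 3.62-fold and relative input from 0.928 to 2.1. Its widest region, from 9424337 to 9425288, had 330 ChIP reads against 110. The group from 7031560 to 7041135 was sparser, with regions on 22.0% of its span and 470 ChIP reads against 156. Its enrichment was even, from 2.38-fold to 3.67-fold. The highest of these values came from an 11 bp region with 22 ChIP reads against 6, so it rests on few reads. Rescaling left 6 and 5 regions of these groups. The 6 still formed a single group, from 9422237 to 9429753, whereas the 5 no longer made a group of 4 or more.

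**Figure D4:**
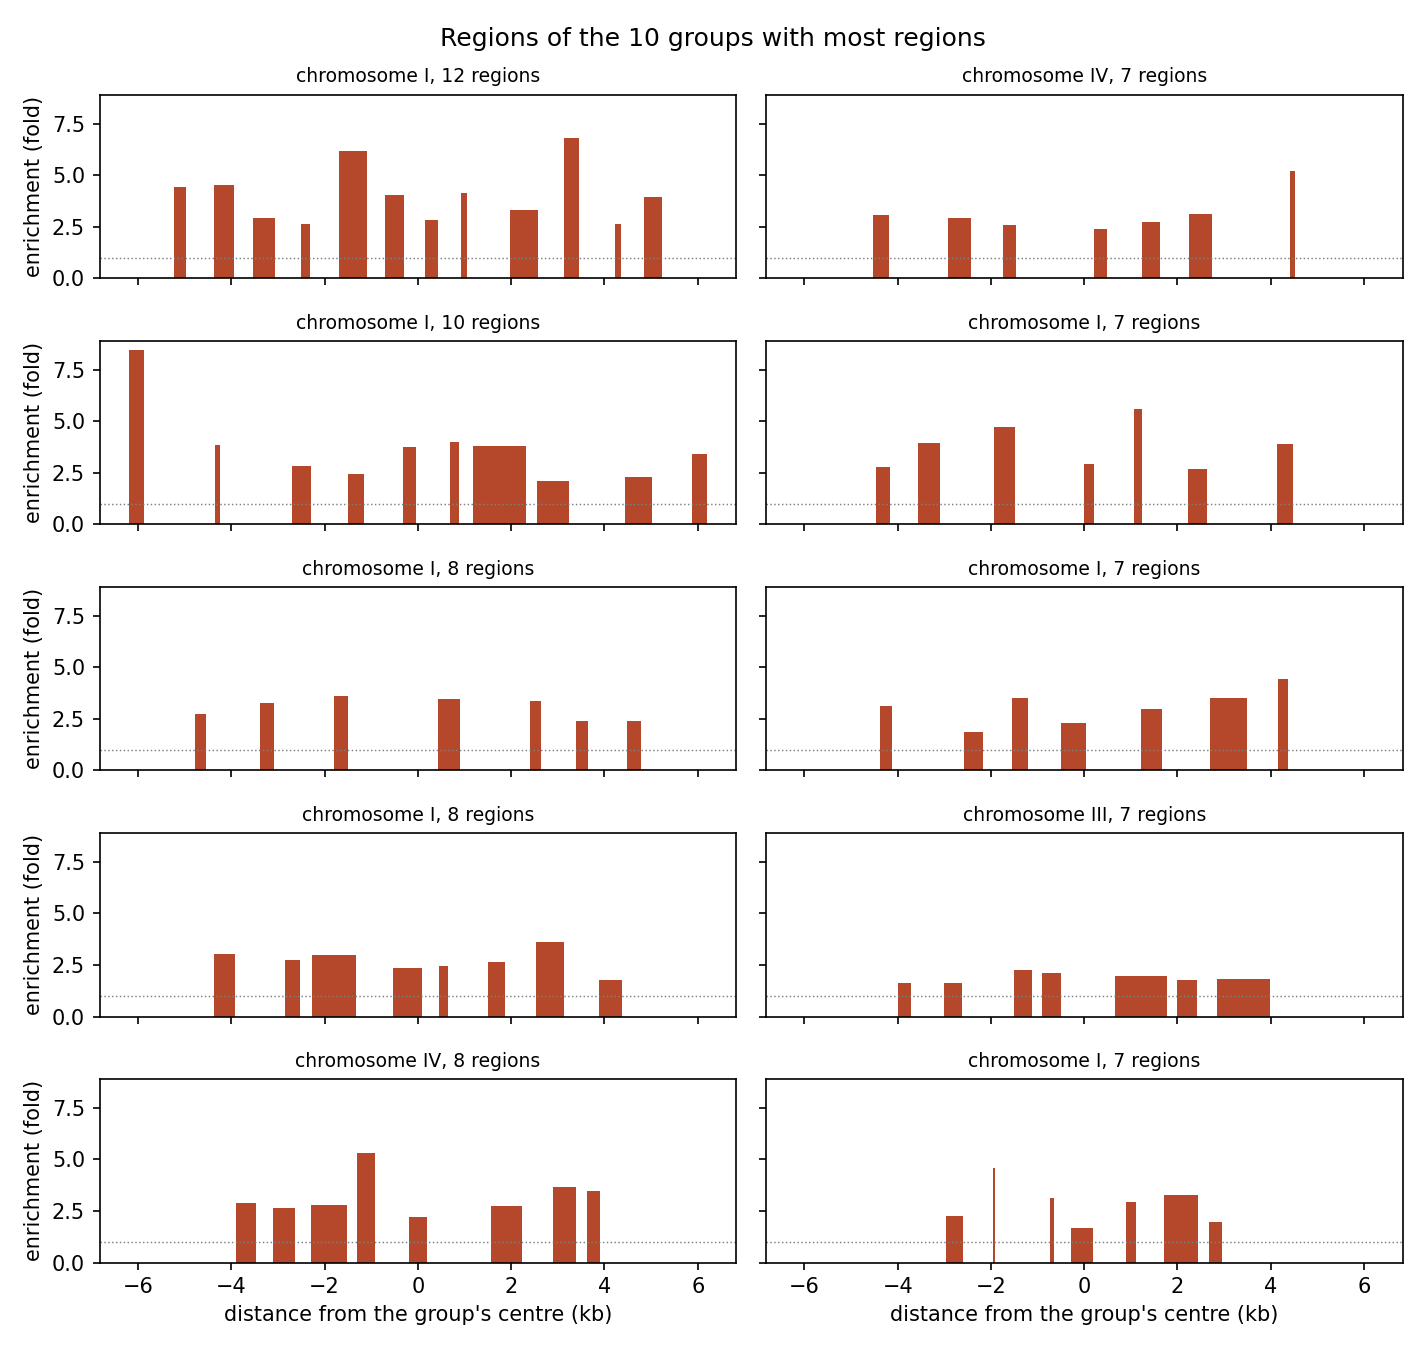
Regions of the 10 groups with most regions, drawn to scale as distance in kb from the centre of the group, with bar width equal to region width and bar height equal to enrichment. The dotted line marks equal ChIP and scaled input, and an 11 bp region in the third panel on the left is too narrow to be seen. The 12-region group on I has 6 regions above 4-fold, whereas none of the 7 regions on III exceeds 2.26-fold.

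Outside chromosome I the fullest group lay on IV from 11347106 to 11354923, at 65.0% of the chromosome. Its 8 regions covered 49.6% of the span and held 859 ChIP reads against 278 scaled input reads. Enrichment was 2.19-fold to 5.29-fold. The peak value belonged to the region from 11349708 to 11350088, with 127 ChIP reads against 24 and q = 8.49e-17. Directly beside it, from 11348719 to 11349494, the region with most reads (166 against 59) was enriched 2.81-fold. A second group on IV, from 4574098 to 4583135 in the left arm, had 7 regions on 26.4% of its span. Among these 6 lay between 2.39-fold and 3.10-fold, and the 113 bp region at the right end reached 5.2-fold with 26 ChIP reads against 5.

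The group of 7 on chromosome III, from 7718333 to 7726313, stood at the other end of the scale. It held more ChIP reads than the 12-region group on I, 1086, but against 577 of scaled input, and the ratio was 1.88. All its regions were enriched between 1.61-fold and 2.26-fold. Relative input was above 1 in each, from 1.06 to 1.95, with a median of 1.74. The region with the smallest q (2.40e-10), from 7722978 to 7724087, had 280 ChIP reads against 143. The leftmost region, with 92 against 57, had q = 8.97e-03 and so lay just within the list. At a low ratio only a region with many reads can pass the q limit.

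Further groups of 7 lay on I. In the group from 12987011 to 12995948, regions were enriched 2.70-fold to 5.6-fold, with a median of 3.88, on 26.1% of the span. The group from 14932643 to 14941390 stood at 99.4% of the chromosome, close to its right end, with 1.86-fold to 4.44-fold. The group from 3735537 to 3741444 was uneven. A single region there, from 3740210 to 3740934, had 315 of the 605 ChIP reads, and the group kept 2 regions after rescaling. The other pair kept 6 each, in neither case as a single group of all 6.

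On the remaining chromosomes the largest groups were smaller, and where several had the same number of regions the one with the longest span is given. On X, which had 4 groups of 6, the group from 5815349 to 5821491 had 6 regions on 65.7% of its span, with 1011 ChIP reads against 380. Enrichment was 2.05-fold to 3.04-fold, and the 1390 bp region from 5816042 to 5817431 had q = 4.90e-29. On V the group from 10271246 to 10276943 had 6 regions in the middle of the chromosome, from 2.44-fold to 4.33-fold. Its main region, from 10273654 to 10274306, held 245 of 506 ChIP reads. On II, which had 5 groups of 5, the group from 13060783 to 13067238 lay in the right arm, with enrichment from 2.09-fold to 3.57-fold and a q of 2.68e-06 or below in each region.

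By the ratio of summed reads, the 3 highest groups were all on I, where the scaling factor is low. They were the groups from 9969377 to 9973445 (4.71), from 9962044 to 9966803 (4.39) and from 2678050 to 2683311 (4.36). Before scaling of the input, ChIP reads were 6.62, 6.16 and 6.12 times the input reads in these groups, and the 3 highest values belonged to groups on other chromosomes. They were 8.29 on V from 9663931 to 9666993, 8.26 on X from 4799254 to 4804948 and 7.05 on II from 6393399 to 6396984. The groups on I from 9962044 to 9966803 and from 9969377 to 9973445 lie 2.57 kb apart, the closest pair of separate groups, so that 8 regions stand within 11.4 kb. This stretch contains the grouped region with the smallest q, 1.62e-60 at place 19 of the list, from 9962044 to 9963210, with 467 ChIP reads against 88 and 5.31-fold enrichment. In the group from 2678050 to 2683311 the left end region reached 7.45-fold with 149 ChIP reads against 20.

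The 3 lowest ratios belonged to groups of 4 outside chromosome I. They were on X from 4218209 to 4223427 (1.53) and from 2549015 to 2554144 (1.73), and on III from 10815083 to 10820077 (1.82). In the first of these, the region from 4222300 to 4223427 had 455 ChIP reads against 328, a ratio of 1.39, and a relative input of 4.3, the highest of any grouped region. The other 3 regions of that group had relative input of 0.964 to 1.41 and enrichment of 1.68-fold to 2.22-fold. On III the 4 regions were even, from 1.68-fold to 2.00-fold, with relative input from 1.08 to 2.13. Before scaling of the input, the lowest values were instead on I, 2.72 from 2299469 to 2307088 and 2.89 from 5127095 to 5131305. The group on X from 4218209 to 4223427 came next with 3.05.

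The most enriched grouped region with at least 200 ChIP reads lay on X from 4802315 to 4802786, with 233 ChIP reads against 32, or 7.28-fold, and q = 1.09e-36. It belongs to the group of 6 from 4799254 to 4804948, whose left neighbour, a group of 5 from 4784789 to 4790821, is 8.43 kb away. The highest ratio of all, 10.5-fold on I from 8717215 to 8717279, came from 21 ChIP reads against 2. The widest grouped region, on V from 14830504 to 14832703, had 423 ChIP reads against 228, or 1.86-fold.

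Regions of the same group were often unequally enriched. The ratio of the highest to the lowest enrichment in a group had a median of 1.81 over the 133 groups and an interquartile range of 1.51 to 2.28, and it was at least 2 in 59 groups. Whether few reads in a region or the number of regions had a part in this ratio was not tested. The medians of the groups themselves ran from 1.73-fold to 4.63-fold, with an interquartile range of 2.43 to 3.17. In 85 groups every region with reads was enriched at least 2-fold, and 31 groups had a region of at least 5-fold. Of all listed regions with reads 80.1% reached 2-fold and 7.46% reached 5-fold, against 88.0% and 5.42% of grouped ones. The region with most ChIP reads held a median of 39.7% of the reads of its group, from 15.2 to 75.1%, and more than 50% in 22 groups.

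**Figure D5:**
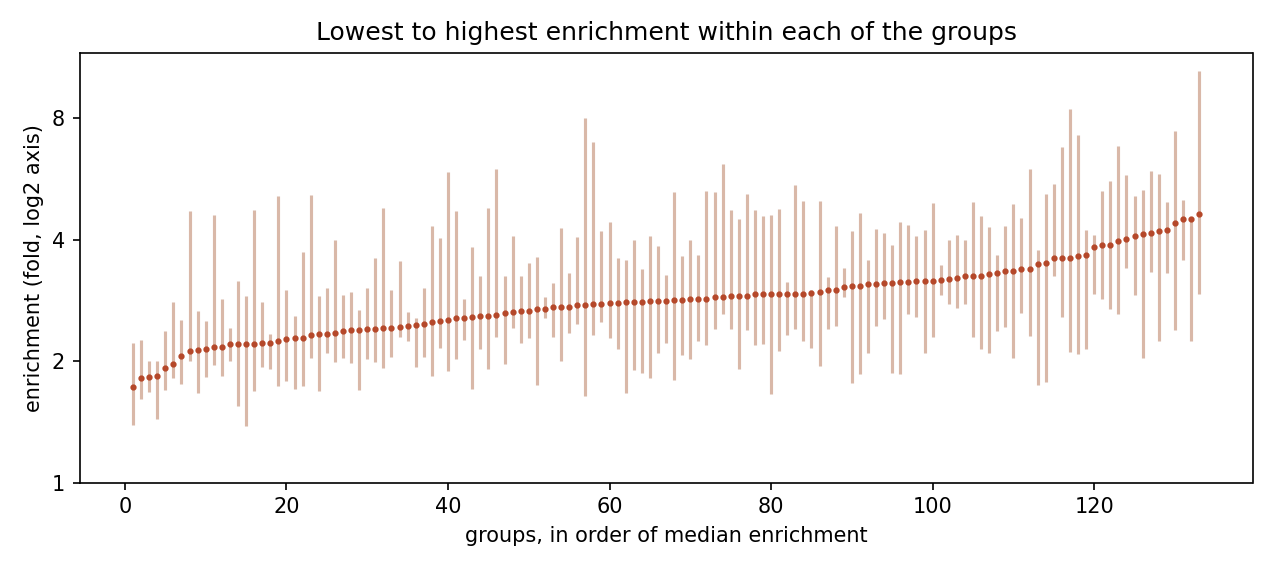
Lowest to highest enrichment (vertical line) and median enrichment (point) of the regions in each of the 133 groups, ordered by the median, on a log2 axis. In 59 groups the line spans at least a 2-fold range, and medians run from 1.73-fold to 4.63-fold.

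Neighbours in a group were more alike in input than in enrichment, and the same order held between neighbouring isolated regions. Over 494 pairs of neighbours, the log2 of relative input had Pearson's r = 0.3 and Spearman's rho = 0.28. For enrichment relative to the chromosome's median the values were 0.14 and 0.12, and for width, over 495 pairs, 0.12 and 0.15. Between neighbouring isolated regions, with a median distance of 10664 bp, the same values for relative input were 0.12 and 0.12 (3514 pairs), and for enrichment 0.06 and 0.05 (3536 pairs). All pairs come from the same libraries, and a region enters up to 2 pairs, so these values are descriptions.

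The 2000 bp limit has regions close to it on each side. Inside it, the widest links were 1996 bp on X, between regions from 16003390 to 16003646 and from 16005091 to 16005937 (2.64-fold and 2.70-fold), and 1995.5 bp on I, between regions from 9964603 to 9964916 and from 9966707 to 9966803 (3.85-fold and 4.43-fold). Just outside, chains of 3 and 2 on III stayed apart at 2000.5 bp, between 9081891 and 9083187, with 2.10-fold and 1.89-fold on the facing regions. On I a single region from 7523093 to 7523424 (2.03-fold) stayed 2002 bp from a group of 4. Of the links within groups 10 were over 1950 bp, and 16 distances of up to 2050 bp would have added members.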

How the data were processed

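The deposited file is a list of regions with PeakSeq as source and WormBase WS180 as build, per the file headers and columns, and its only value is a q-value per region for ChIP over input. It combines both replicates. How they were combined, the aligner, tool versions, read filters and the q limit are not given in the sources used here. The largest q is 0.00999. The labels name 2 replicates and do not say how far back they were separate. The lysis step of the labels' protocol speaks of embryos, although the stage is given as L3.

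Place in the list times q gave p times the number of tests. At 25497 tests the 60 commonest values all matched tails of a binomial with probability 0.5, and 7483 regions (99.9%) had a single pair of read numbers. The relative tolerance was 3e-11, and wider for unmatched regions with very small p. The other 10 regions had no value that needs reads. Input factors were searched in steps of 0.0005, and dividing scaled input by its factor and rounding down gave input before scaling. By chromosome, rounded multiples of the factor covered 95.6 to 98.5% of the scaled input numbers, where they make up 50.4 to 72.2% of all whole numbers in the range. Input per kb used the width plus 200 bp. PCR duplicates may be among the reads. Groups, arms (outer 30% of 1 to the last region end) and all medians were computed with Python 3.11.15, numpy 2.4.6, pandas 2.3.3 and scipy 1.17.1, and the procedure was tested on simulated data. Rescaling of chromosome I multiplied its input before scaling by 1.897 and recomputed q, with 0.01 as limit. Regions tested but not listed could not enter.

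Groups and regions are named by size, by ratio of summed reads, by place among the first 25, by width and by enrichment with at least 200 ChIP reads, and at the 2000 bp limit. Those named for being within a named group, beside the closest pair of groups or in the fullest window of X were chosen after their values were seen. So were the highest and lowest ratios before scaling, and the highest ratio of all. Members and lists were chosen with earlier results of these data known. Sequences and nearest genes needed the WS180 genome and annotation and were not analysed here.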

Additional observations from a re-analysis of the deposited data

How the results depend on the processing

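No paired analysis was possible because the deposited list merges the replicates, and for that reason none could be left out either. The alternatives for arms on X and autosomes apart, the width limit, enrichment relative to its chromosome, and the list without the groups of 8 or more on chromosome I were chosen after seeing the data. A value is said to move when it leaves the exact 95% binomial interval of the grouped share, or of the grouped median. The number of grouped regions, 628, follows from the limits themselves. It was 44, 228 and 1281 with midpoints within 1000, 1500 and 3000 bp, 1026 with 2000 bp between edges, 1342 and 296 with at least 3 and 5 regions a group, and 100 in the better-scoring 50%. The excess of grouped over isolated regions on chromosome I, 21.8 percentage points, was 31.7 with at least 5 regions, 32.2 within 1000 bp and 2.44 with the input of I rescaled, and it reversed to -14.9 with the distance scaled by chromosome spacing. For arms, the -4.54 points became -19.2 in the better-scoring 50%, -9.47 with the scaled distance, -37.4 and -22.3 within 1000 and 1500 bp and -8.72 without X, and reversed to 0.928 with at least 5 regions. They were -7.91 with rescaled input, and smaller at -2.66 with arms of 35%, -2.36 both with at least 3 regions and within 3000 bp, and -1.25 without the groups of 8 or more on I. The causes were not tested. On X alone, 23.3 points became 6.33 with arms of 25%, 13.1 in the better-scoring 50%, 2.18 within 1500 bp, -13.3 within 1000 bp, 14.9 with at least 3 regions and 15.0 within 3000 bp. On autosomes, -8.72 became -2.68 and -5.10 with at least 5 and 3 regions, -5.57 within 3000 bp, -5.27 without the groups of 8 or more on I, -25.1 in the better-scoring 50%, -15.3 with rescaled input, -42.5 and -26.0 within 1000 and 1500 bp and -14.5 without I. The difference in median width, 27.0 bp, was 76.5 between edges, 7.0 in the better-scoring 50%, 48.0 with the scaled distance, 0.0 within 1500 bp and 59.0 within 3000 bp. That of the median -log10 q, 0.76, was 1.15 within 1000 bp and at least 0.514 in all 13 alternatives. X alone was not among these alternatives, and there the medians were 3.91 in grouped and 4.16 in isolated regions. The ratio of median enrichment, 1.09, was 1.01 between edges, 1.04 and 1.14 with at least 3 and 5 regions, 1.15 in the better-scoring 50%, 1.04 relative to the chromosome, 1.03 with input before scaling, 1.22 and 1.03 within 1000 and 3000 bp, and reversed to 0.999 with the scaled distance. Depth limits the ratios of the 16 grouped regions under 50 bp.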
